A study of Arabidopsis thaliana with 30 samples.

Results

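Leaf transcripts of a WRKY40 knockout line of Arabidopsis thaliana were set against those of wild-type Col-0 after 1 h of high light. The comparison rests on 6 of the 30 arrays of the study, the 3 high light arrays of the knockout and the 3 high light arrays of Col-0, chosen by their sample titles. All probe sets of the array were followed, and 15922 of the 22746 that are not controls passed a filter on low signals. Knockout plants (Atwrky40) and Col-0 plants had both been grown on soil to an age of 21 days and then exposed to light of 1000 µE per square metre per second before their leaves were frozen. Untreated leaves of the same knockout and of Col-0, with 3 arrays each, serve below as a second comparison, and 3 more lines in high light, which overexpress WRKY40, lack WRKY63 or overexpress WRKY63, give further levels. No source used here states the allele, the parent accession or the number of lines behind the knockout, so the loss of WRKY40 and any other difference between that line and Col-0 cannot be told apart. The labels also do not say whether arrays of a group came from separate plants, so p-values measure the spread between these arrays, which may be technical.

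WRKY40 belongs to the WRKY transcription factors, which bind W-box motifs in plant promoters, and it acts together with its relatives WRKY18 and WRKY60 mostly as a repressor of defence and abscisic acid genes. It is also known as a repressor of nuclear genes that respond when mitochondria or chloroplasts malfunction. High light drives more electrons through photosynthesis than leaves can use, and the alternative NAD(P)H dehydrogenases and oxidases of mitochondria can take up part of the excess.

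The knockout could not be checked on its own transcript, because the annotation names 0 probe sets for WRKY40, WRKY18, WRKY60 and WRKY63. The annotation gives 1 gene for 8768 kept probe sets, several for 323 and none for 6831. The 6 arrays were alike in scale, with median signals of 148.2 to 160.8, and correlated at 0.960 to 0.979 within a group and at 0.920 to 0.939 between the groups. The leaf label was borne out by photosynthesis markers, whose 8 named members summed to signals of 113556 to 136691 in knockout arrays and 125863 to 136040 in Col-0 arrays. Root markers summed to 845 to 1620 in knockout arrays and 520.2 to 575 in Col-0 arrays. Of their 7 probe sets, that of AT1G12080 was the brightest (956 ± 412 against 271 ± 52.0, SD, n = 3 each). PYK10 averaged 191 ± 39.6 in knockout and 153 ± 85.7 in Col-0 arrays, and AT4G11290 averaged 71.9 ± 20.1 and 67.3 ± 52.1. AT5G17820 and AT3G01190 averaged below a signal of 6 in both groups. The 1 named guard cell and epidermis marker, AT1G22690, was at 1064 to 1140 in knockout arrays and 1382 to 1676 in Col-0 arrays and was not called. The ratio of actin 3' to 5' control signals, a sign of RNA quality, was 1.43 to 1.69 on the log2 scale in knockout arrays and 1.72 to 1.83 in Col-0 arrays. The GAPDH ratio was -0.10 to 0.03 in knockout arrays and 0.12 to 0.30 in Col-0 arrays. Neither ratio overlapped between the groups, and their part in the results was not tested.

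After high light the knockout differed from Col-0 at many loci. Among the genes ranked by size, the largest falls were near-complete losses of signal, led by AT1G66100 and AT2G25510. The largest rise among them was that of AOP3, a dioxygenase of glucosinolate synthesis. Of 8 measured genes of the mitochondrial stress response 6 were higher, and so were several nuclear genes of mitochondrial metabolism. Cold-regulated COR15A and COR15B, the sugar carriers SWEET16 and SWEET17, the methionine sulfoxide reductase MSRB5 and 9 UDP-glycosyltransferases were lower. Nuclear genes of photosynthesis split, with 4 of 38 higher, among them LHCB4.3 and LIL3:2, and 6 lower, among them LHCB4.2 and CaS. Differences are given as log2 of knockout over Col-0 with the standard error of the fit, and a probe set counts as called at a Benjamini-Hochberg adjusted p below 0.05 in limma. Limma called 2426 of 15922 probe sets (15.2%), 1175 of them higher (7.38%) and 1251 lower (7.86%). At least 2-fold differences were called for 912 probe sets (5.73%), 363 higher (2.28%) and 549 lower (3.45%). Without knockout replicate 3 the number called higher was 768. In 5390 probe sets (33.9%) the 3 knockout arrays and the 3 Col-0 arrays did not overlap. Both called and without overlap were 2350, which is 14.8% of all 15922. The median over all kept probe sets was 0.05. In whole leaves, fewer cells that hold a transcript and less of it per cell cannot be told apart.

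The deepest falls left the knockout with almost no signal. AT1G66100 gave signals of 2.39, 1.76 and 1.98 in the 3 knockout arrays, against 5519, 5465 and 4762 in the 3 Col-0 arrays, on the linear scale of the deposited values. Every knockout array lay near the bottom of the scale and every Col-0 array far above 1000, and the log2 difference was -10.75 ± 0.45 (adjusted p = 2.03e-15). Since the knockout signals are so small, this difference depends on the pseudocount and was -8.19 with a pseudocount of 16. AT2G25510 had 102, 52.0 and 81.7 in knockout leaves and 23912, 16699.9 and 21716 in Col-0 leaves, a difference of -8.07 ± 0.21. Signals of AT3G22240 were 208, 173 and 189 in knockout leaves and 14574, 8624 and 14706 in Col-0 leaves (-6.01 ± 0.19). For AT2G25510 and AT3G22240 the knockout kept a measurable signal, and the groups were far apart in every array. QQS, a gene found only in Arabidopsis thaliana and known to affect how leaf carbon is split between starch and protein, had 36.6, 5.04 and 31.5 in knockout leaves and 722, 1004 and 821 in Col-0 leaves (-5.43 ± 0.51, adjusted p = 1.45e-08). The remaining 6 of the 10 largest falls, AT2G25450, AT1G76960, AT2G01090, AT2G34840, AT4G19500 and AT5G45500, had no knockout array above a signal of 28.9, which is not shown to be above background. Their differences of -7.33 to -5.61 became -6.02 to -3.94 with a pseudocount of 16, so neither their exact size nor their order is fixed by these data.

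In high light the other transgenic lines averaged far above the knockout for AT1G66100 and AT2G25510, while QQS was lowered in the WRKY63 knockout too. AT1G66100 averaged 4835 ± 2505 with WRKY40 overexpressed, 5004 ± 479 without WRKY63 and 4805 ± 3624 with WRKY63 overexpressed (SD, n = 3 each). For AT2G25510 the averages were 25913 ± 2774, 17923 ± 1122 and 25010.3 ± 6364 in these same lines. QQS averaged 712 ± 519, 102 ± 32.8 and 493 ± 165, so it was also lower than in Col-0 in the WRKY63 knockout (-3.08 ± 0.51, adjusted p = 0.0166), though every array of the 3 lines stayed above every WRKY40 knockout array. Against the mean of these 3 lines the knockout differed by -10.53 ± 0.37 for AT1G66100, -8.19 ± 0.17 for AT2G25510 and -3.97 ± 0.42 for QQS. In that comparison, which shares the knockout arrays with the main one, 3174 probe sets were called (19.9%). Over all kept probe sets, 16 had every knockout array below the filter level of 46.7 and every Col-0 array above 200, and 11 of the 16 name 1 gene. Those 11 lie on all 5 chromosomes, with 3 each on chromosomes 1, 2 and 3 and 1 each on chromosomes 4 and 5. None of the 16 was below the filter level in all 3 arrays of any of the other 3 high light lines, a rule that a partial loss would not meet. All 16 were also called lower in untreated knockout leaves. In the opposite direction, 2 probe sets were below the filter level in every Col-0 array and above 200 in every knockout array.

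**Figure D1:**
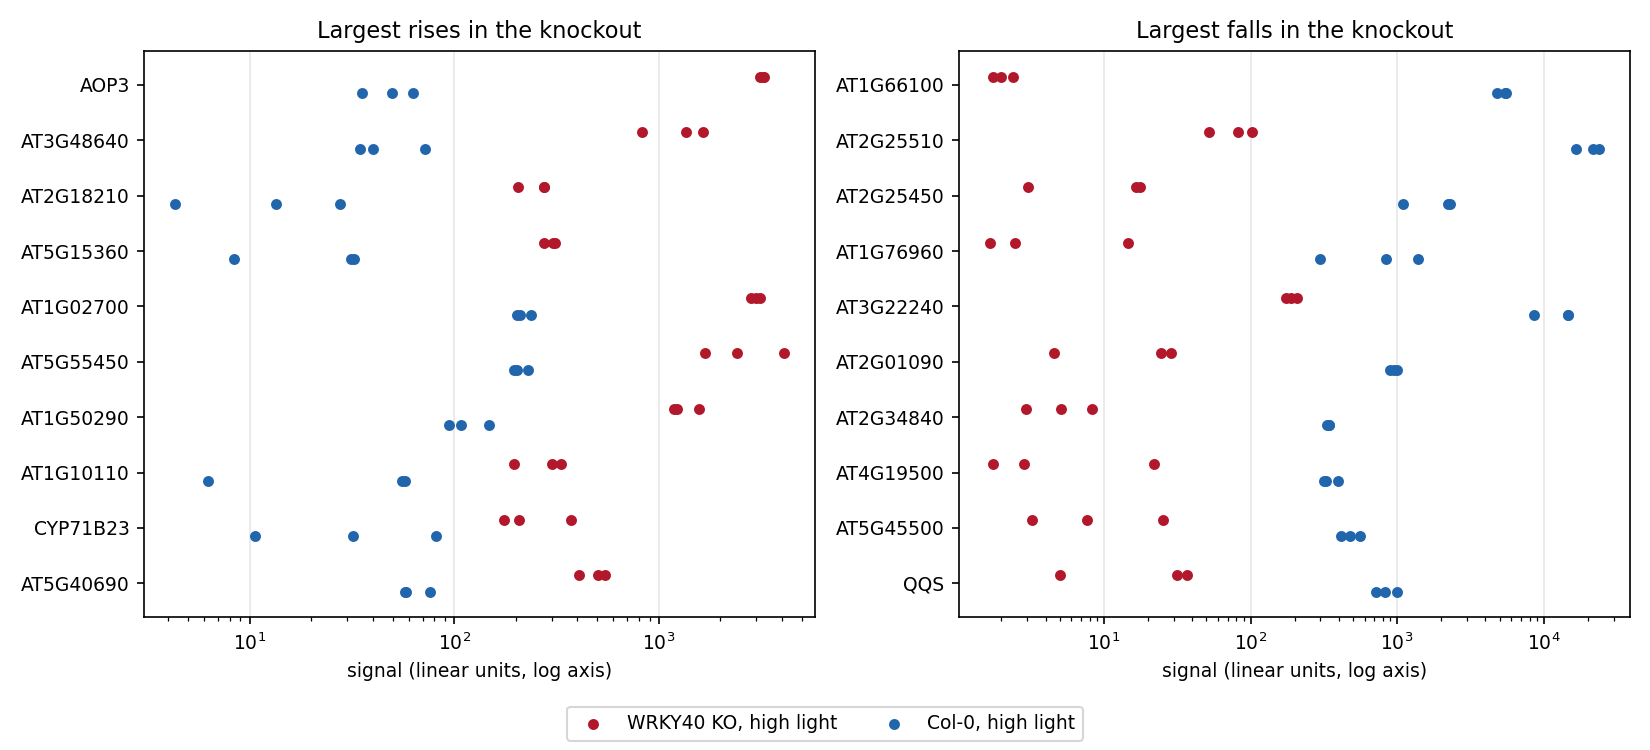
Signals of the 10 largest rises (left) and 10 largest falls (right) in the 6 high light arrays, on a log axis of linear signal units; each point is 1 array, knockout in red above Col-0 in blue. The 20 genes were picked from those whose groups do not overlap, so their separation follows from that choice. AOP3 lies at 3114 to 3259 in knockout arrays against 35.6 to 63.0 in Col-0 arrays.

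Among the rises ranked here AOP3 stood furthest from Col-0. The enzyme modifies the side chains of aliphatic glucosinolates, and its gene is known to be close to silent in Col-0 leaves and active in leaves of some other accessions. Its signals were 3114, 3239 and 3259 in the knockout and 35.6, 63.0 and 49.8 in Col-0, so the knockout arrays lay close together and far above all Col-0 arrays (6.03 ± 0.67, adjusted p = 2.47e-07). The other lines stood with Col-0, at 19.1 ± 15.3 with WRKY40 overexpressed, 34.7 ± 22.4 without WRKY63 and 16.5 ± 13.1 with WRKY63 overexpressed. AT3G48640 had 829, 1651 and 1357 in knockout leaves and 40.2, 71.9 and 34.5 in Col-0 leaves (4.70 ± 0.45). AT1G50290 had 1186, 1227 and 1579 in knockout leaves and 147, 108 and 94.0 in Col-0 leaves (3.52 ± 0.26), with averages of 135 ± 25.6, 133 ± 7.43 and 137 ± 12.7 in the other 3 lines. The 3 knockout arrays of AT1G50290 again formed a group of their own, above all arrays of Col-0. Signals of AT1G02700 were 2822, 3126 and 2972 in the knockout and 237, 209.6 and 203 in Col-0 (3.77 ± 0.36, adjusted p = 1.98e-08). Unlike AOP3 and AT1G50290, this gene was at 37.4, 22.5 and 51.7 in untreated knockout leaves and 19.8, 24.1 and 11.6 in untreated Col-0 leaves, so it was dim in both genotypes before the treatment. AT2G18210, AT5G15360, AT5G55450, AT1G10110, AT5G40690 and the cytochrome P450 gene CYP71B23 completed the 10 largest rises, with differences of 4.26, 3.78, 3.61, 3.24, 2.91 and 2.92. The 10 rises and 10 falls were ranked among calls that name 1 gene, without overlap and with a higher group averaging at least 200. Larger called rises outside these limits are left out.

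Genes known to respond to mitochondrial dysfunction were higher in the knockout after high light. Of the 20 genes listed, 10 have a named probe set and 8 passed the filter on low signals, and 6 of the 8 were called higher and 0 lower, with a median of 1.00. Among all kept probe sets that name 1 gene, 15% were called, 7.21% higher and 7.79% lower. The brightest of the 6 in the knockout was AT2G41730, with 11438, 10002 and 10424 in the knockout and 3738, 5049 and 3514 in Col-0. All 3 knockout arrays lay at about the same level, above each Col-0 array (1.39 ± 0.27, adjusted p = 7.06e-04). The probe set of AT2G41730 may bind several genes. AT5G09570 had 556, 619 and 554 in knockout leaves and 182, 183 and 176 in Col-0 leaves (1.67 ± 0.43, adjusted p = 0.00768), again with wide separation. AT2G21640 had 6806, 8597 and 8454 in knockout leaves and 2894, 4297 and 4134 in Col-0 leaves, and each knockout array exceeded every Col-0 array (1.09 ± 0.29, adjusted p = 0.0112). That call was lost without Col-0 high light replicate 1, the array lowest for this gene, where the difference was 0.91 (adjusted p = 0.0664). AT1G24095 (1.03 ± 0.24), AT5G43450 (0.97 ± 0.22) and NDB2 (0.91 ± 0.21) were higher as well, without overlap between the groups. AT3G10930 had 278, 355 and 346 in the knockout and 136, 249 and 279 in Col-0, which overlap (0.62 ± 0.73, adjusted p = 0.646). AT5G51440 was bright in both genotypes, at 20443, 17873 and 16621 in the knockout and 16534, 17632 and 15579.6 in Col-0 (0.14 ± 0.29, adjusted p = 0.818).

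**Figure D2:**
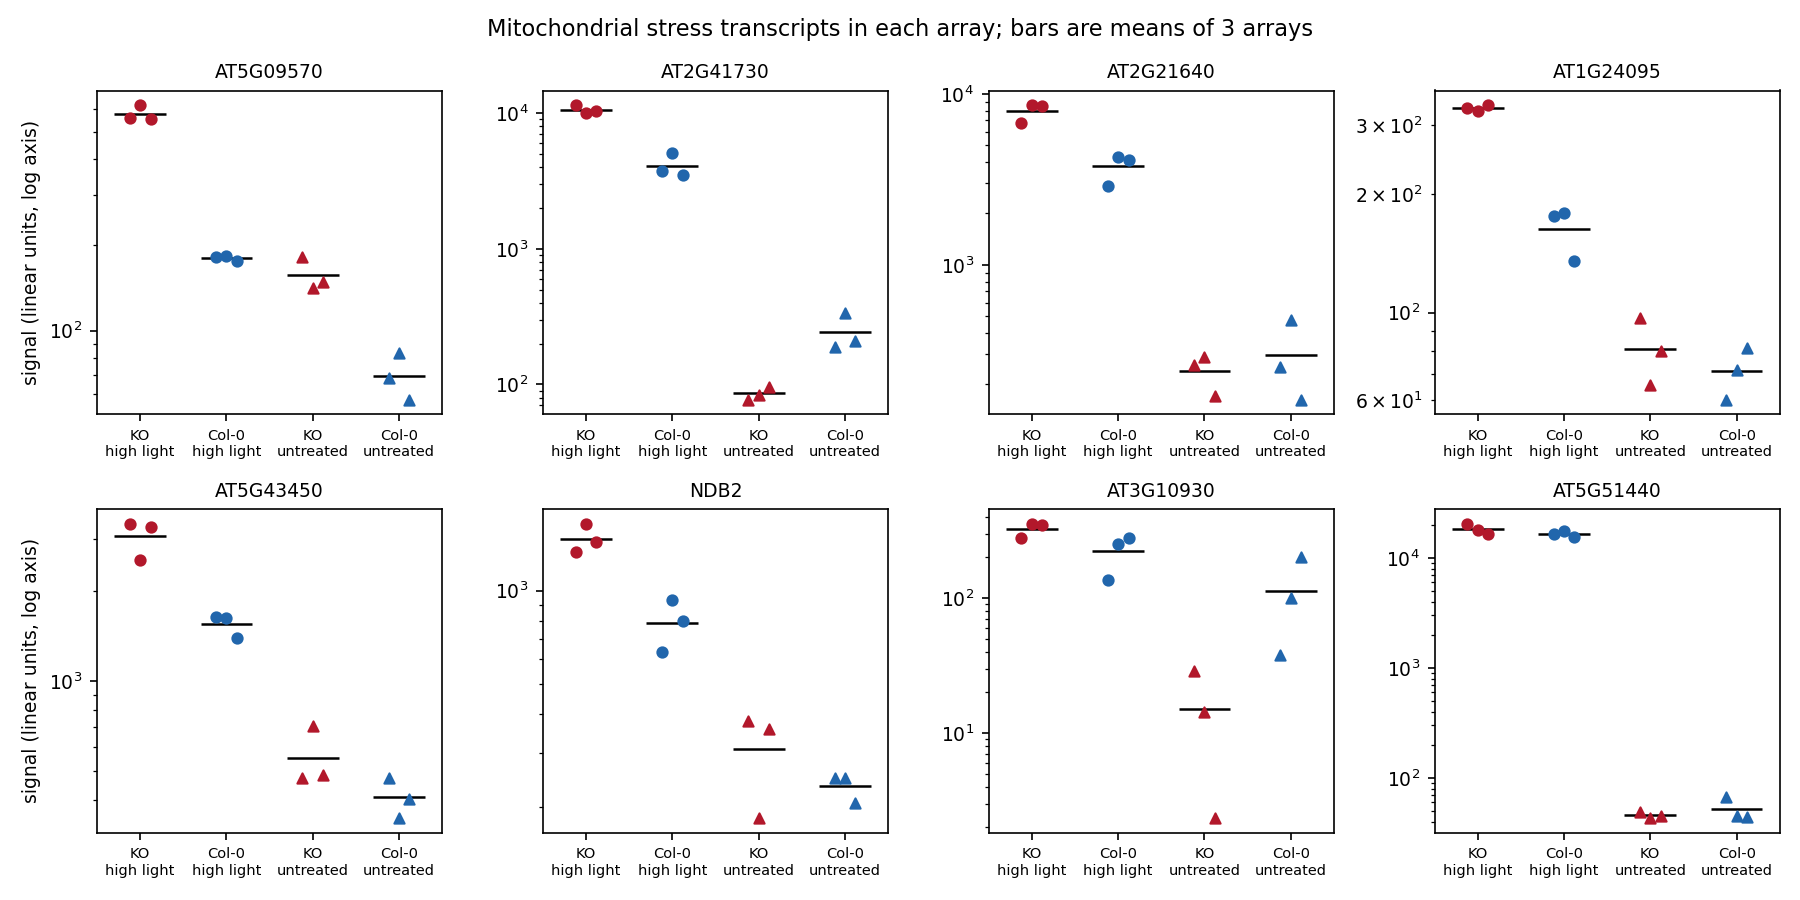
Signals of the 8 mitochondrial stress genes in each array of the knockout (red) and Col-0 (blue), in high light (circles) and untreated (triangles), on log axes of linear signal units; black bars are means of 3 arrays. In high light the knockout points lie above all Col-0 points for 6 genes and overlap them for AT3G10930 and AT5G51440.

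Without treatment the same 8 genes showed another order. In untreated leaves limma called 0 of the 8 higher (1 at an unadjusted p below 0.05) and 2 lower, with a median of 0.00, against 6.86% of all kept probe sets called higher and 7.4% lower. AT2G41730 had 77.3, 83.6 and 96.4 in untreated knockout leaves and 189, 336 and 210.2 in untreated Col-0 leaves, so the knockout was below Col-0 before the light treatment (-1.46 ± 0.27, adjusted p = 4.34e-04) and above it afterwards. Its response to high light was 6.94 in the knockout and 4.09 in Col-0 on the log2 scale, and the difference between these responses was called (2.85 ± 0.39, adjusted p = 2.68e-04). AT3G10930, the other gene lower without treatment (-3.01 ± 0.73), had an uncalled difference between responses of 3.63 ± 1.04 (adjusted p = 0.108). AT2G21640 (1.29 ± 0.41, adjusted p = 0.173), NDB2 (0.59 ± 0.30, adjusted p = 0.45) and AT5G09570 (0.50 ± 0.60, adjusted p = 0.822) were not called in this test either. In the same high light, the mean of the other 3 transgenic lines was below the knockout for AT5G09570, which averaged 154 ± 64.0 with WRKY40 overexpressed, 124 ± 10.7 without WRKY63 and 113 ± 27.2 with WRKY63 overexpressed (knockout minus their mean 2.19 ± 0.35, adjusted p = 3.71e-05).

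Nuclear genes of mitochondrial metabolism moved in 1 direction where they were called. Of 28 such genes, 7 were higher and 0 lower, with a median of 0.24, beside the 7.21% of all probe sets with 1 gene that were called higher. Along with NDB2, an external alternative NAD(P)H dehydrogenase, these were SDH2-2, NDC1, GLDH, MCCB, BIGYIN and MAB1. SDH2-2, the iron-sulphur subunit of succinate dehydrogenase, had 1835, 2130.5 and 1899 in knockout leaves and 1259, 1219.8 and 1171 in Col-0 leaves (0.68 ± 0.11, adjusted p = 7.98e-05). Every knockout array was above 1800 and every Col-0 array below 1300 for this gene. NDC1, another alternative NAD(P)H dehydrogenase, had 846, 845 and 862 in knockout leaves and 575, 612 and 617 in Col-0 leaves (0.50 ± 0.12, adjusted p = 0.00588), with tight groups that did not overlap. GLDH, which makes the last step of ascorbate synthesis on the inner membrane, was at 486 ± 39.6 and 334 ± 38.4 in knockout and Col-0 leaves (0.54 ± 0.16). MCCB, of leucine breakdown, BIGYIN, of organelle division, and MAB1, a subunit of pyruvate dehydrogenase, differed by 0.50 ± 0.15, 0.36 ± 0.09 and 0.30 ± 0.08. The count of 7 was 4 without knockout replicate 2 and 5 without knockout replicate 3 or Col-0 replicate 2. In untreated leaves 6 of the 28 were higher and 0 lower, beside 6.86% higher and 7.4% lower over all kept probe sets.

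Of 18 kept probe sets for genes of the mitochondrial genome, 2 were higher and 2 lower, with a median of -0.25, beside 15% called over all probe sets with 1 gene. The cytochrome c maturation gene ccb382 had 2506, 2171 and 2510.1 in knockout leaves and 1145, 750.2 and 985 in Col-0 leaves (1.34 ± 0.23, adjusted p = 1.25e-04), a separation that was also called in untreated leaves (1.00 ± 0.23). For nad1, a subunit of complex I, 1 probe set was lower (-2.09 ± 0.45) at signals below 150 in all 6 arrays. The cytochrome oxidase subunit genes cox1 (0.97 ± 0.30) and cox2 (-0.72 ± 0.24) lost their calls when any of 5 and of 4 single arrays was left out. The call of cox2 was also lost with no filter (adjusted p = 0.0623) and with quantile normalization (adjusted p = 0.0611). Among 69 plastid genes 3 were higher and 1 lower, which is 5.8%. The single fall, ccsA, needed to attach haem to plastid cytochromes, had 4132, 3605 and 4593 in knockout leaves and 12267, 7908 and 13266 in Col-0 leaves (-1.41 ± 0.20), and its untreated difference was of the same size (-1.41 ± 0.20). None of the 3 higher plastid genes, rpoC2, rps3 and rps4, was called without Col-0 replicate 2.

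Nuclear genes of chloroplast photosynthesis split in both directions. Of 38 genes, 4 were higher and 6 lower, with a median of -0.02, beside 7.21% higher and 7.79% lower over all probe sets with 1 gene. LHCB4.3, a minor antenna protein of photosystem II, had 6172, 6319 and 6277 in knockout leaves and 3027, 2404 and 3986 in Col-0 leaves (1.03 ± 0.22, adjusted p = 0.00161). Its close relative LHCB4.2 went the other way, with 9619, 10965 and 9337 in knockout leaves and 17132, 15621 and 16240.2 in Col-0 leaves (-0.71 ± 0.10, adjusted p = 1.09e-05). For both genes the arrays of the groups were fully apart. LIL3:2, a light-harvesting-like protein needed for chlorophyll and tocopherol synthesis, had 5702, 5382 and 5144 in knockout leaves and 2577, 2622 and 3179 in Col-0 leaves (0.96 ± 0.10, adjusted p = 8.59e-08). The light response of LIL3:2 differed between the genotypes (0.72 ± 0.14, adjusted p = 0.00872). CaS, the calcium-sensing protein of thylakoids, had 2932, 2921 and 3073 in knockout leaves and 6081, 5087 and 5227 in Col-0 leaves (-0.87 ± 0.14). HEMA2 and CHLI2, of tetrapyrrole and chlorophyll synthesis, were lower, with -0.96 ± 0.21 and -0.83 ± 0.17, and HEME1 of the same pathway was higher by 0.47 ± 0.14. The photosystem II assembly factor LPA19 (-0.70 ± 0.16) and the plastid RNA editing factor LPA66 (-0.63 ± 0.13) were lower. PRK, of the Calvin cycle, had a difference of 0.32 ± 0.11 that was not called without Col-0 replicate 1 or 2 or knockout replicate 1, and 2 of the 4 rises remained without Col-0 replicate 2. In untreated leaves 0 of the 38 were higher and 6 lower, beside 6.86% higher and 7.4% lower over all kept probe sets.

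Redox genes were divided, with 4 of 27 higher and 4 lower and a median of 0.14, beside 7.21% and 7.79% over all probe sets with 1 gene. The largest difference was that of MSRB5, which repairs oxidised methionine, with 131, 355 and 272 in knockout leaves and 1551, 2459 and 2277 in Col-0 leaves (-3.13 ± 0.34, adjusted p = 1.63e-07). MSRB5 averaged 3137 ± 880.2 with WRKY40 overexpressed, 2035 ± 566 without WRKY63 and 1265 ± 536 with WRKY63 overexpressed, and the WRKY40 knockout differed from their mean by -3.05 ± 0.28. ATMDAR2, a monodehydroascorbate reductase that regenerates ascorbate, had 1683, 1628 and 1624 in knockout leaves and 3819.9, 4241 and 4171 in Col-0 leaves (-1.31 ± 0.22, adjusted p = 1.04e-04). The 3 knockout arrays of ATMDAR2 agreed closely and each was below every Col-0 array. MSRB6 (-0.86 ± 0.23) and the glutaredoxin GRXC1 (-0.76 ± 0.17) were lower too. The 4 rises, VTC4 and GLDH of ascorbate synthesis and the thioredoxins TRXF2 and TO1, were small, at 0.35 to 0.54, and 0 of them was called without Col-0 replicate 2. Of 5 antioxidant enzymes and 10 heat shock proteins 0 were called higher or lower at an adjusted p below 0.05 in limma, and 0 had an unadjusted p below 0.05. With a pseudocount of 16, 1 heat shock gene was lower.

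The cold and dehydration list gave 3 falls and 0 rises among 8 genes, with a median of -0.60, beside 7.79% called lower over all probe sets with 1 gene. COR15A, a chloroplast protein that protects membranes on freezing, had 1611, 1381 and 1511 in knockout leaves and 7809.7, 8292 and 10553 in Col-0 leaves (-2.56 ± 0.41, adjusted p = 5.70e-05). Its neighbour and paralog COR15B had 901, 838 and 869 in knockout leaves and 2976, 2596 and 3027 in Col-0 leaves (-1.72 ± 0.39, adjusted p = 0.00282). Both genes showed knockout arrays close together and well below all Col-0 arrays. The third fall in the list, OPCL1 (-1.04 ± 0.32), is an enzyme known for activating jasmonate precursors and not for cold protection, and the list kept 2 falls without Col-0 replicate 2. COR47, a dehydrin, was at 18944 ± 2659.9 in knockout leaves and 17157 ± 5249 in Col-0 leaves and was not called (0.18 ± 0.20, adjusted p = 0.612), whereas it was called higher in untreated knockout leaves (0.96 ± 0.20). For anthocyanin synthesis, 5 genes were measured and all 5 differences were negative, but 1 was called, AT4G14090 (-1.74 ± 0.58, adjusted p = 0.0422). DFR, the dihydroflavonol reductase, was at 212 ± 29.7 in knockout leaves and 559 ± 139 in Col-0 leaves (-1.37 ± 0.50, adjusted p = 0.0662). The anthocyanin count was 3 on only the arrays compared and 0 with quantile normalization or no filter, and the call of AT4G14090 held in 1 of 6 fits that each left out 1 array.

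UDP-glycosyltransferases attach sugars to hormones, flavonoids and other small molecules. Of 29 measured that the annotation lists under a family name, 9 were lower and 0 higher, with a median of -0.18. Over all probe sets with 1 gene, 7.79% were called lower. Family members named only by locus are not in this count. UGT76C1, which inactivates cytokinins, had 23.3, 71.2 and 41.5 in knockout leaves and 136, 126 and 139.7 in Col-0 leaves (-1.68 ± 0.25, adjusted p = 2.30e-05). GT72B1, known to act on foreign phenols and lignin precursors, had 1233, 993 and 1134 in knockout leaves and 2894, 2277 and 2329 in Col-0 leaves (-1.15 ± 0.22, adjusted p = 5.81e-04). Neither gene's groups overlapped. UGT72E1, which acts on lignin precursors, was at 47.7 ± 36.7 in knockout leaves and 124 ± 31.4 in Col-0 leaves (-1.94 ± 0.49). UGT71C5, which conjugates abscisic acid, was at 156 ± 19.3 in knockout leaves and 262 ± 48.8 in Col-0 leaves (-0.74 ± 0.16). UGT74D1, of auxin conjugation, and UGT78D1, which adds rhamnose to flavonols, differed by -0.89 ± 0.22 and -0.64 ± 0.20. UGT88A1, UGT71B1 and UGT71C4 completed the 9, with -0.92 ± 0.25, -0.65 ± 0.15 and -0.63 ± 0.18. The number lower was 6 to 8 when 1 array was left out, with 6 without knockout replicate 2, and 1 member was called higher without Col-0 replicate 3. Untreated, 6 of the 29 were lower and 0 higher, beside 7.4% lower and 6.86% higher over all kept probe sets. Limma called a differing light response for 0 of these 29 matched by name (2 at an unadjusted p below 0.05), beside 1.03% of all kept probe sets.

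Glucosinolates are sulphur compounds that deter herbivores. Of 6 genes for aliphatic glucosinolates, AOP3 and AT2G31790 were higher and AT2G25450 was lower, while UGT74B1, GSTU20 and BCAT4, at 0.12, 0.18 and 0.36, were not called. Over all probe sets with 1 gene, 7.21% were called higher and 7.79% lower. AT2G25450 had 3.06, 17.7 and 16.7 in knockout leaves and 1088, 2232 and 2293 in Col-0 leaves (-7.33 ± 0.48, adjusted p = 1.87e-11). All Col-0 arrays were above 1000 and no knockout array reached 20. The other lines kept its signal, at 2062 ± 908 with WRKY40 overexpressed, 2504 ± 689.9 without WRKY63 and 2297 ± 863 with WRKY63 overexpressed. AT2G31790 had 1808, 1576 and 1619 in knockout leaves and 1272, 1113 and 1297 in Col-0 leaves (0.44 ± 0.11, adjusted p = 0.00835), and it lost its call without Col-0 replicate 2 or knockout replicate 1.

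SWEET proteins carry sugars across membranes, and 2 of 10 were lower and 1 higher, beside 7.79% lower and 7.21% higher over all probe sets with 1 gene. SWEET17, a fructose carrier of the vacuole, had 1045, 1002 and 1016 in knockout leaves and 3619, 2821 and 3164 in Col-0 leaves (-1.64 ± 0.16, adjusted p = 4.22e-08). Knockout arrays stood within a narrow range, well below the lowest Col-0 array. In untreated leaves SWEET17 was at 2117, 1729.8 and 1805 in the knockout and 2358, 1702 and 1893 in Col-0, which overlap, and its light response differed between the genotypes (-1.57 ± 0.23, adjusted p = 8.36e-04). SWEET16, also of the vacuole, had 91.7, 106 and 115 in knockout leaves and 234, 335 and 395 in Col-0 leaves (-1.59 ± 0.25), and it was lower untreated as well (-1.34 ± 0.25). SWEET11, which exports sucrose towards the phloem, had 2283, 1772 and 1915 in knockout leaves and 1329, 1368 and 1165 in Col-0 leaves (0.62 ± 0.20), a call that was lost with quantile normalization and when any of 5 single arrays was left out.

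Among 37 genes of the ubiquitin system 4 were higher and 4 lower, shares near the 7.21% higher and 7.79% lower over all probe sets with 1 gene. The ubiquitin-specific protease UBP21 had 102, 129 and 141 in knockout leaves and 48.9, 20.0 and 27.7 in Col-0 leaves (2.00 ± 0.26, adjusted p = 3.99e-06), and its light response differed (2.20 ± 0.37, adjusted p = 0.00269). In the other lines UBP21 was at 107 ± 21.6 with WRKY40 overexpressed, 73.5 ± 24.1 without WRKY63 and 83.2 ± 17.3 with WRKY63 overexpressed, averages that were also above all 3 Col-0 arrays. Against their mean the knockout differed by 0.53 ± 0.22 (adjusted p = 0.0879). RING1, an ubiquitin ligase linked to cell death, had 2307, 3189 and 2578 in knockout leaves and 1401, 1416 and 1306 in Col-0 leaves (0.96 ± 0.20). UBC28 and UBC37, ubiquitin-conjugating enzymes, were lower, with -0.85 ± 0.14 and -1.29 ± 0.21. For UBC28 the knockout signals were 4696, 4188 and 3479 and the Col-0 signals 8978, 6386 and 7041, with no overlap. Of 10 autophagy genes, ATG8G (0.65 ± 0.16) and ATG8F (0.44 ± 0.15) were higher and ATG3 (-0.37 ± 0.12) was lower, and of these only ATG8G kept its call when each of the 6 arrays was left out in turn.

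Defence and senescence regulators were thinly covered. Of 6 WRKY family genes with a kept probe set, 1 was higher and 0 lower. Beside this and the other family counts given here, 7.21% of all probe sets with 1 gene were called higher and 7.79% lower. The WRKY, glutathione S-transferase and cytochrome P450 families were matched by name, so members named only by locus are not counted. WRKY53, a regulator of leaf senescence and salicylate defence, had 389, 1008 and 621 in knockout leaves and 184, 245 and 312 in Col-0 leaves (1.37 ± 0.42, adjusted p = 0.0255). Each knockout array was above each Col-0 array, but the spread within the knockout was wide and the call was lost without Col-0 replicate 1 or 2 or knockout replicate 2 or 3. The small antimicrobial protein THI2.2 was at 82.4, 43.8 and 42.7 in knockout leaves and 288, 258 and 247 in Col-0 leaves (-2.28 ± 0.40, adjusted p = 1.96e-04). PDF1.2, a jasmonate-responsive defensin, was at 64.0 ± 11.7 in knockout leaves and 271 ± 75.2 in Col-0 leaves and was not called (-2.04 ± 0.76, adjusted p = 0.074). Among 9 glutathione S-transferases GSTU27 was higher (0.72 ± 0.15) and GSTU16 (-1.15 ± 0.20) and GSTU26 (-2.08 ± 0.44) were lower, the last at signals below 90 in all 6 arrays and without a call on only the arrays compared (adjusted p = 0.0659). Without knockout replicate 1 the difference of GSTU26 was -1.35. Of 16 cytochrome P450 genes matched by name, CYP71B23 was higher (2.92 ± 0.58) and CYP71B26 was lower (-1.52 ± 0.17). CYP71B26 had 1101, 797 and 987 in knockout leaves and 3191, 2452 and 2596 in Col-0 leaves. CYP78A9 was lower too (-0.73 ± 0.20), though its groups overlapped and its call was lost without Col-0 replicate 1 or knockout replicate 1 or 2.

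Much of the difference between knockout and Col-0 was present without high light. The untreated comparison shares no array with the one in high light, and limma called 2271 of its probe sets (14.3%). Both comparisons called 1098 probe sets in the same direction, 402 higher and 696 lower, which is 45.3% of the high light calls and 48.3% of the untreated calls. A further 19 were called in opposite directions, and 1309 of the high light calls (54.0%) were not called untreated. By sign alone, 2175 of the 2426 high light calls (89.7%) pointed the same way in untreated leaves. Of the 84 calls of at least 8-fold in high light, 70 (83.3%) were also called untreated and in the same direction. Across the 15922 probe sets, which are not independent replicates, the differences in high light and untreated correlated with Pearson's r of 0.65.

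**Figure D3:**
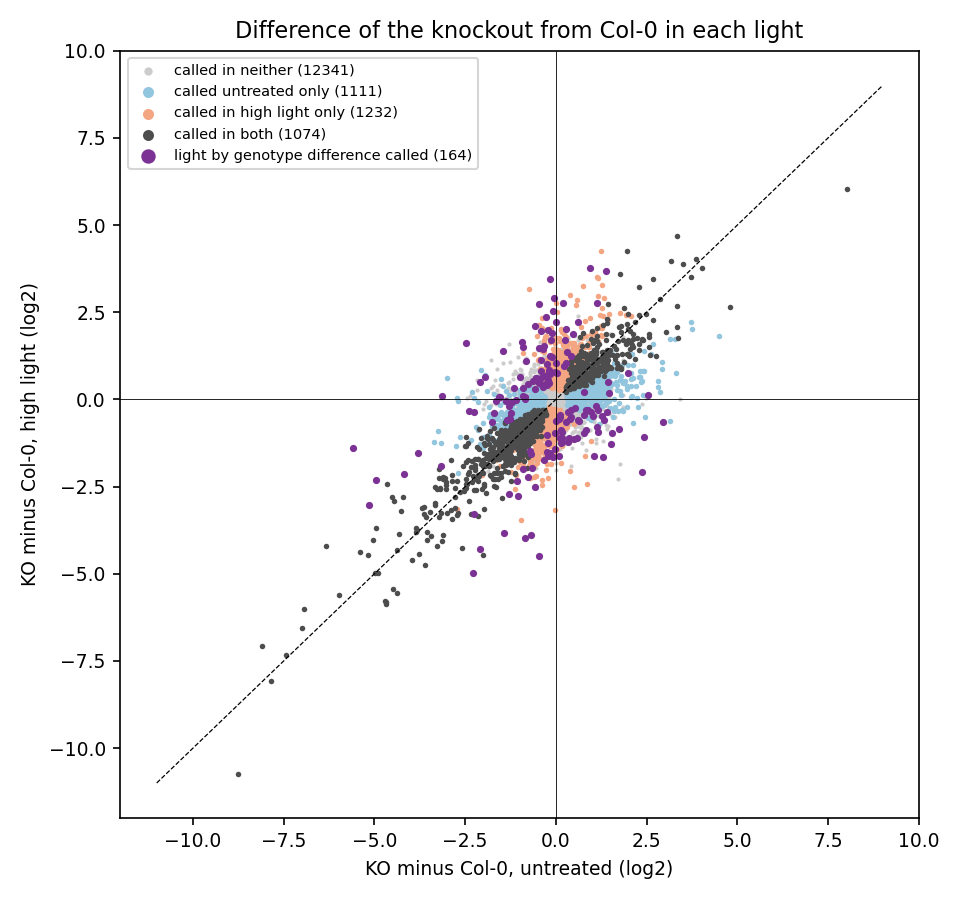
Log2 difference of the knockout from Col-0 in high light (vertical) against that in untreated leaves (horizontal) for 15922 probe sets, coloured by the comparison in which they were called; the dashed line marks equal differences. The 1074 probe sets shown as called in both lights are those of 1117 left after the 164 with a called light by genotype difference, in purple, were set apart, so their place near the line follows from that choice.

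A light by genotype test asked where the knockout differed from Col-0 by another amount in high light than without it. Limma called this light by genotype difference for 164 probe sets (1.03%), 89 higher (0.559%) and 75 lower (0.471%). Of the 164, 120 were also called in high light, 77 of them in high light and not untreated, 47 higher and 30 lower. AT5G40690 had 406, 547 and 505 in knockout leaves in high light and 58.1, 57.1 and 76.5 in Col-0, against 113, 104 and 94.0 in untreated knockout leaves and 63.5, 208 and 91.3 in untreated Col-0. The knockout was thus apart from Col-0 in high light (2.91 ± 0.40) and overlapped it untreated (-0.04 ± 0.40), and the difference between the lights was 2.95 ± 0.56 (adjusted p = 0.00694). AT1G02700, described above, had 2.82 ± 0.51 (adjusted p = 0.0041). AT5G14730 had 263, 182 and 245 in knockout leaves in high light and 99.7, 73.7 and 54.3 in Col-0, against 20.0, 17.5 and 4.42 in untreated knockout leaves and 58.7, 76.5 and 76.5 in untreated Col-0. The knockout was above Col-0 in high light (1.61 ± 0.52) and below it untreated (-2.47 ± 0.52), and the test of this difference was called (4.08 ± 0.73, adjusted p = 0.0041). AT5G37230, whose probe set may bind several genes (3.18 ± 0.75), AT5G05190 (2.68 ± 0.65), AT4G28460 (2.64 ± 0.60) and AT4G17260 (1.73 ± 0.43) were higher in high light and not called untreated. Each of these 4 calls on the difference between lights was lost when single arrays, or the arrays of high actin ratio, were left out. With no filter those of AT5G05190 (adjusted p = 0.0534) and AT4G17260 (adjusted p = 0.0536) were lost. The same 2 were lost with no variance trend, and that of AT4G17260 with quantile normalization (adjusted p = 0.053). Those of AT5G37230 (adjusted p = 0.138) and AT4G28460 (adjusted p = 0.0549) were lost on only the arrays compared.

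Among the genes that were lower relative to Col-0 in high light than untreated were AT1G66540, AT5G18340, AT1G64300 and AT3G28840. AT1G66540 had 60.4, 36.3 and 52.8 in knockout leaves in high light and 932, 689 and 544 in Col-0, against 33.8, 47.5 and 52.1 in untreated knockout leaves and 104, 151 and 106 in untreated Col-0. Its signal rose with light in Col-0 (2.56) and changed by 0.15 in the knockout. The difference between genotypes was already called untreated (-1.42 ± 0.27), and in high light it lay further from 0 (-3.83 ± 0.27; difference between the lights -2.40 ± 0.39, adjusted p = 0.00214). AT5G18340 had 82.5, 129.7 and 108 in knockout leaves in high light and 386, 536 and 431 in Col-0, against 119, 96.1 and 66.5 in untreated knockout leaves and 28.6, 18.9 and 8.69 in untreated Col-0. The knockout was above Col-0 without treatment and below it in high light (-4.45 ± 0.78, adjusted p = 0.00337). AT1G64300 and AT3G28840 were dim, with 2.82, 5.20 and 3.52 and 4.92, 3.17 and 2.82 in knockout leaves in high light and 80.5, 71.5 and 59.3 and 116, 72.8 and 122 in Col-0. Their differences between the lights of -3.23 ± 0.48 and -4.04 ± 0.73 became -1.63 and -2.17 with a pseudocount of 16, the last without a call (adjusted p = 0.0609). IRX15-L, of xylan synthesis in cell walls, had -1.27 ± 0.45 in high light and 1.51 ± 0.45 untreated (-2.77 ± 0.63, adjusted p = 0.0271), and 1 untreated knockout array at 1114 stood above the other 2 at 133 and 244.

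**Figure D4:**
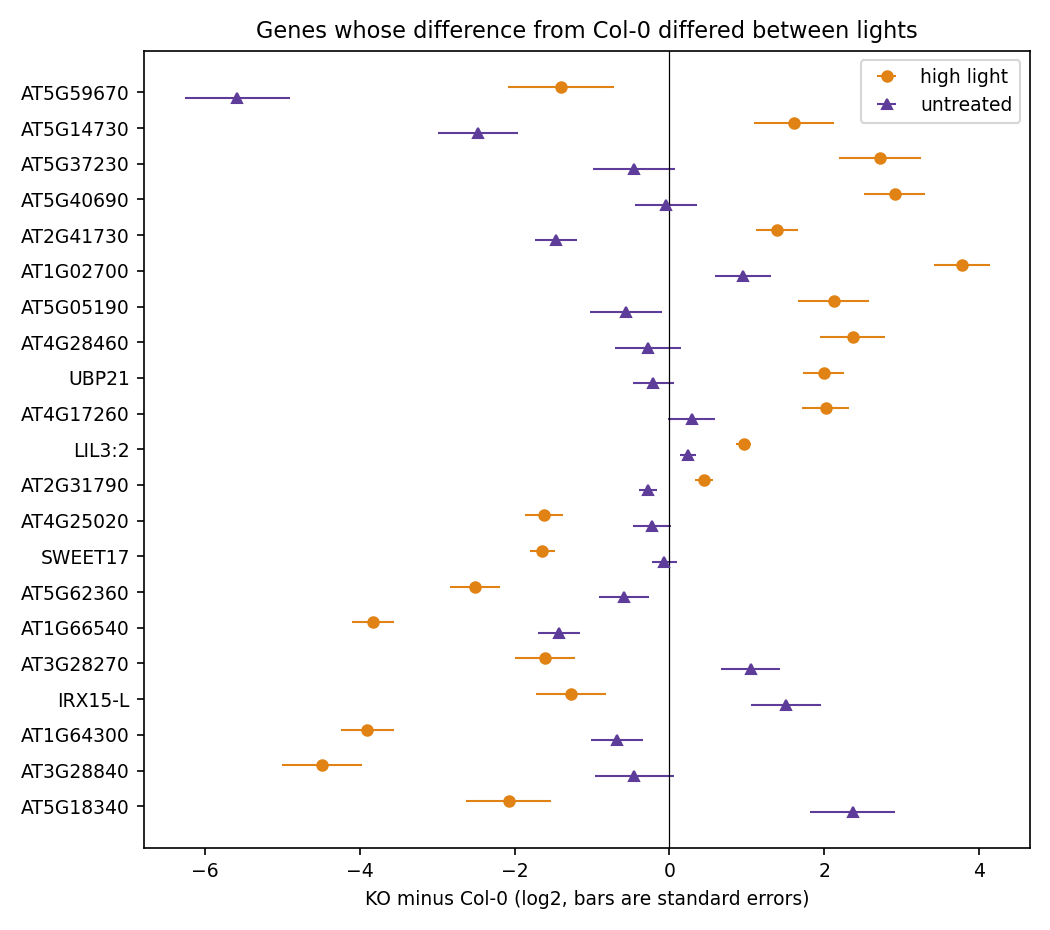
Log2 difference of the knockout from Col-0 in high light (orange circles) and untreated (purple triangles), with standard errors, for the 21 named genes whose difference between the lights was called. Genes are ordered by that difference, which runs from 4.18 for AT5G59670 to -4.45 for AT5G18340.

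Calls fell on all 5 chromosomes, with denser stretches in some windows. Among probe sets that name 1 gene of the nuclear chromosomes, the share called in high light was 14.7% on chromosome 1, 14.4% on chromosome 2, 13.9% on chromosome 3, 16.5% on chromosome 4 and 16.0% on chromosome 5. In 171 windows of 50 neighbouring kept genes, in the gene order of the TAIR10.1 annotation, 1 to 20 genes were called, with a median of 7. The highest count, 20 (40%), was in the window on chromosome 1 between TUA1 and AT1G66620, which holds AT1G66100 and AT1G66540, and 18 genes of that window were called untreated. The next was on chromosome 3 between AT3G43510 and AT3G45630, with 16 called in high light and 16 untreated. On chromosome 1 the windows before and after the highest held 15 and 9 genes called in high light. On chromosome 3 those before and after held 13 and 6, and the one following held 14. What these windows share beyond their position was not tested.

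**Figure D5:**
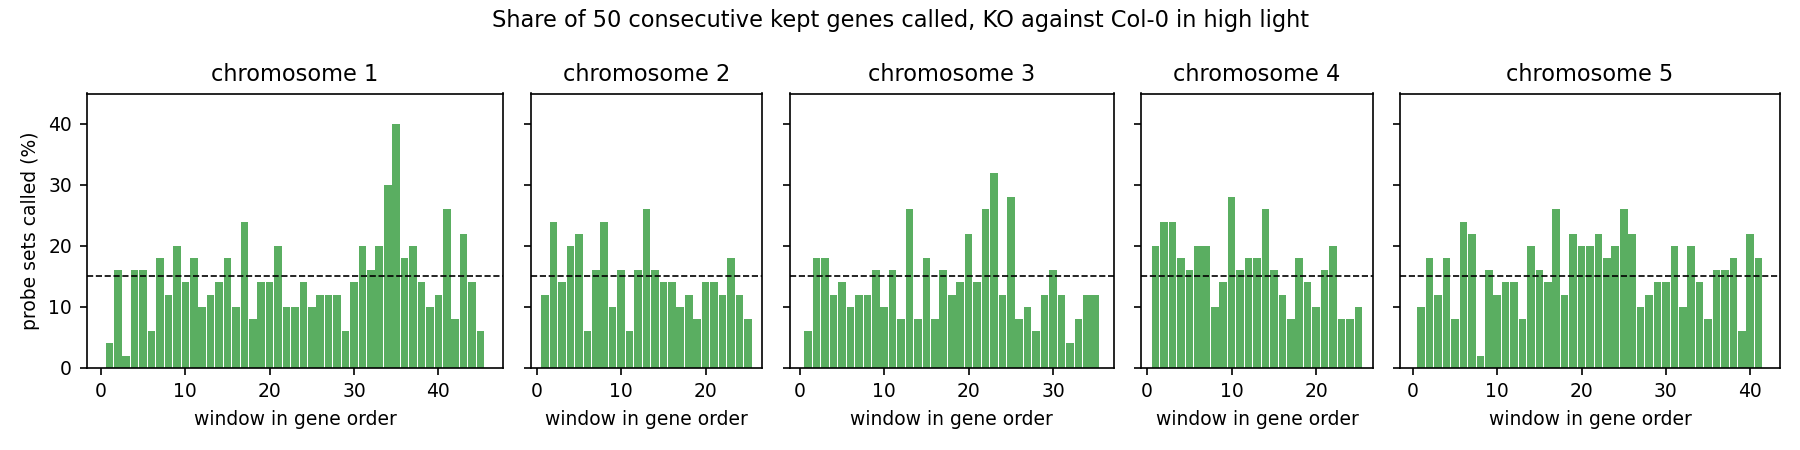
Share of genes called between knockout and Col-0 in high light in windows of 50 neighbouring kept genes along the 5 chromosomes (bars, in gene order); the dashed line is the share over all 5 chromosomes, 15.1%. The tallest bar, at 40%, is on chromosome 1.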

How the data were processed

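Leaf RNA of 30 samples in 10 groups of 3 was hybridised to Affymetrix ATH1 arrays, 1 array a sample, and groups were taken from the sample titles. The authors deposited 1 linear intensity (signal) per probe set and array, made with MAS5 per the submitters' processing notes (version not given in the sources used here), and each array has the same trimmed mean of 500.05. The table holds no detection calls, so signals of a few units may lie below background, and the number of arrays limits the precision. From 22810 probe sets 64 controls were left out, and the 30th percentile of mean log2 signal, a signal of 46.7, was the filter. Differences were fitted on log2(signal + 1) with limma 3.58.1 in R 4.3.3, by a group-means model over all 30 arrays with a variance trend, so groups share 1 estimate of the spread. A fold difference on this scale understates the change of dim genes. Adjusted p-values are Benjamini-Hochberg values over the kept probe sets. Values after ± are standard errors for log2 differences and SDs over 3 arrays for mean signals. Genes were named by GEO's annotation of the array, parts of which are old, checked against TAIR10.1, which held 8729 of the 8768 genes named. The members and lists were chosen with earlier results of these data known. Genes were named by rank among the calls and by the 2 lowest adjusted p-values per direction in each list, and other called or uncalled members of described lists were named after their values were seen. On simulated arrays, 200 changes were planted among 15922 probe sets. The high light comparison recovered 57% of log2 changes of 1 and 92% of those of 2, with 12 false calls. The light by genotype test recovered 50% and 80%, with 6 false calls. Simulated noise was independent between arrays and between probe sets, so these figures do not cover effects that arrays of a group share. Deviations of same-numbered arrays of knockout and Col-0 in high light correlated at 0.26, 0.21 and 0.008, and those of unlike numbers at -0.31 to 0.16. In untreated leaves same numbers gave 0.12, -0.12 and 0.05, and unlike numbers -0.19 to 0.16. These values do not settle whether the numbers mark pairs, and the main fit did not take them as pairs. Alternatives were a pseudocount of 16, other filters, quantile normalization, only the arrays compared, no variance trend, a replicate block, leaving out arrays of high actin ratio and leaving out each array. The design text names WRKY60 where the titles have WRKY63, and the titles were followed.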

Additional observations from a re-analysis of the deposited data

Results flagged for a closer look

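For 21 named genes the difference between knockout and Col-0 was called as differing between high light and untreated leaves, with a positive sign for 12 and a negative sign for 9. Of the 21, 15 were called in high light and not untreated, 2 untreated and not in high light, 3 in both with opposite signs and 1 in both with the same sign. The positive ones, as the high light difference minus the untreated difference on the log2 scale, were AT5G59670 at 4.18, AT5G14730 at 4.08, AT5G37230 at 3.18, AT5G40690 at 2.95, AT2G41730 at 2.85 and AT1G02700 at 2.82. AT5G59670 was lower in the knockout untreated (-5.58), while its high light difference of -1.40 was not called. AT5G05190 had 2.68, AT4G28460 had 2.64, the ubiquitin protease UBP21 had 2.20, AT4G17260 had 1.73, and LIL3:2 and AT2G31790 had 0.72 each. The negative ones were AT4G25020 at -1.39, the vacuolar sugar carrier SWEET17 at -1.57, AT5G62360 at -1.93, AT1G66540 at -2.40, AT3G28270 at -2.66 and the xylan gene IRX15-L at -2.77. AT1G64300 had -3.23, AT3G28840 had -4.04 and AT5G18340 had -4.45. The call was lost for AT5G59670 in 8 of 19 alternatives, AT4G25020 in 14 of 19, AT5G62360 in 12 of 20 and IRX15-L in 7 of 20. AT4G17260 lost it in 15 of 20, AT5G05190 in 14 of 19, AT5G37230 in 10 of 19 and AT4G28460 in 7 of 19. AT3G28840 lost it in 2 of 19 and AT1G64300 in 1 of 19. Of the 17 genes followed singly in this test, 7 kept it in all.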

How the results depend on the processing

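Single genes were followed for those picked by rank and by lowest adjusted p in each list, 90 called in high light and 17 by the light by genotype test. Further list members named in the report, such as MSRB6, HEMA2 and UGT71C5, were not followed singly, and some of the 90 are not named there. None of those followed changed sign, and 65 of the 90 and 7 of the 17 held their call under all alternatives in which they were tested. The filter at the 50th percentile left a different 65 of the 90 to test. A gene that it removed was not counted as losing its call. On only the arrays compared, light by genotype calls numbered 104 and untreated calls 1373. Leaving out 1 array gave 1783 to 2059 high light calls, 768 to 1035 higher and 1015 to 1063 lower, 104 to 194 light by genotype calls, 1531 to 1991 untreated calls, 2180 to 3340 against the other lines and 906 to 1011 shared with the untreated comparison. Light by genotype calls fell to 104 without Col-0 high light replicate 2, 108 without Col-0 replicate 3 and 109 without knockout replicate 3. Leave-one-out counts were 5 to 6 mitochondrial stress genes higher. Among UDP-glycosyltransferases matched by name they were 6 to 8 lower and 0 to 1 higher. A replicate block was also fitted, since numbers are shared and pairing was not settled. It gave 2557 high light calls (1260 higher, 1297 lower), 165 light by genotype, 2388 untreated and 3292 against the other lines. Calls shared with the untreated comparison numbered 1145, with 6 stress genes and 9 glycosyltransferases. Under the block the light by genotype calls of AT4G17260 (adjusted p = 0.059) and AT4G25020 (adjusted p = 0.0627) were lost. Shares of calls that were higher ran from 43.1% to 50.3%. The cause of these changes was not tested. Promoter motifs were not run, since no sequence tables were used here.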
